A study of Homo sapiens with 3 samples.

Results

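Skipped exons were examined at loci whose symbol is a clone name, an intergenic or small nucleolar RNA host gene symbol, or an antisense symbol. Members were every row whose symbol began with RP and a number, CTA to CTD, AC or AL and a clone number, LINC or SNHG, or ended in -AS1. This gave 1135 distinct exons at 582 loci, out of 39434 exons at 11271 loci in the series. An event is 1 row, taken as 1 skipped exon between 1 pair of flanking exons, though the flanking exons themselves are not listed. Members gave 1098 events in the RS2 table, which lists 40702, and 1154 in the RS3 table, which lists 42518. Of the 582 loci, 423 were listed in both tables.

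The material was BJ fibroblasts, a line of normal human foreskin fibroblasts, collected on day 8 after the reprogramming factors OSKM (MYC, KLF4, SOX2 and OCT4) were induced from viruses. The 3 groups of 1 library each shared that background. They received a non-targeting siRNA, an siRNA against SMAD3, which carries TGF-beta signals to the nucleus, or an siRNA against SFRS11, a splicing factor rich in arginine and serine. The deposited tables compare the libraries coded RS2 and RS3 with 1 library they share, called the comparator here, and no label ties a code to an siRNA. The tables hold no expression values, so the knockdowns and the fibroblast identity were not checked. In bulk RNA, an altered mix of cells and altered splicing within cells cannot be told apart.

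Long noncoding RNAs are spliced and polyadenylated like messenger RNAs but carry no long conserved reading frame. Antisense transcripts run across a gene on the opposite strand, and many of them start at a shared promoter. Host genes of small nucleolar RNAs carry those RNAs in their introns, from which they are released after splicing, and the joined exons of the SNHG genes are not known to code for long proteins. Noncoding transcripts are known to be spliced in more varied ways than coding ones.

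By symbol, 477 loci (82.0%) were clone-named, 74 (12.7%) ended in -AS1, 22 (3.78%) were LINC genes and 9 (1.55%) were SNHG genes. The word noncoding did not hold for all of them. GENCODE 29, a later annotation than the one behind the tables, classed 421 loci (72.3%) as noncoding RNA, with 200 antisense and 124 intergenic genes among them. It classed 62 loci (10.7%) as protein coding and 58 (9.97%) as pseudogenes, and 41 (7.04%) were not in it. The symbol had changed for 445 loci (76.5%), and 103 (17.7%) would no longer meet the symbol rule. Of the 541 loci found in GENCODE 29, 284 (52.5%) overlapped a coding gene on the opposite strand and 113 (20.9%) overlapped one on the same strand. Same-strand overlap held for 46 of the 62 protein-coding members (74.2%) and for 61 of the 421 noncoding RNAs (14.5%).

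The exons with a deposited FDR under 0.05 carry the results at single loci, so sequences of the called exons at AC069513.3 and RP11-164J13.1 and of those in small nucleolar RNA hosts are shown. They were read from GENCODE 29 transcripts of the same gene, matched on exon length and on the spacing shared with at least 1 other listed exon, since no genome of the tables' build was at hand. Each runs 5′ to 3′ on the transcript strand, and the capitals mark the last 3 bases before the 5′ splice site, where CAG or AAG is the usual ending.
AC069513.3, 100 bases: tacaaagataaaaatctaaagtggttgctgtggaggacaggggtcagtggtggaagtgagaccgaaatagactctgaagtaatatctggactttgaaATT
RP11-164J13.1, 144 bases: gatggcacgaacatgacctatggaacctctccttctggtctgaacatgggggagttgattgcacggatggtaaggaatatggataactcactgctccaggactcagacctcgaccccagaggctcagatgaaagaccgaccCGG
SNHG16, 99 bases: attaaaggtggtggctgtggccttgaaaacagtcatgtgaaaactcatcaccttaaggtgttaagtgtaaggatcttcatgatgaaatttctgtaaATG
SNHG15, 70 bases: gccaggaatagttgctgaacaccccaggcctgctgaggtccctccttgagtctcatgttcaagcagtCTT
SNHG5, 79 bases: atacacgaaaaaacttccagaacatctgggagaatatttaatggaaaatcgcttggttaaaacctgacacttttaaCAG
C17orf76-AS1, 176 bases: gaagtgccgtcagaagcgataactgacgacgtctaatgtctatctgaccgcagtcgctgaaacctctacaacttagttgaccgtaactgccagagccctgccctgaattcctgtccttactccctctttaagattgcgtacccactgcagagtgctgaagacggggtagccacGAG

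Differences from the comparator were larger at these loci than at other genes. The quantity is the difference in inclusion level, where the level is the share of transcripts over the region that keep the exon, so a difference runs from -1 to 1 and is positive where RS2 or RS3 keeps the exon more often. An absolute difference of at least 0.1 was listed for 609 member events in RS2 (55.5%), against 18.2% for other genes and a background of 19.2% over all events. For RS3 it was listed for 644 (55.8%), against 20.2% for other genes and a background of 21.2%. The median absolute difference was 0.125 against 0.017 in RS2 and 0.126 against 0.019 in RS3. Shares were not tested, because each group has 1 library.

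Small differences were less common among the members and large ones more common. Differences above 0 and under 0.05 made up 28.0% of member events against 66.5% of other events in RS2, with 28.1% against 64.6% in RS3. Differences from 0.2 up to 0.5 made up 23.9% against 6.82%, and 22.6% against 7.42%. At least 0.5 was reached by 147 member events in RS2 (13.4% against 3.34%) and by 157 in RS3 (13.6% against 3.16%). A complete switch, from 0 to 1 or back, was listed for 54 member events in RS2 (4.92% against 0.980%) and for 51 in RS3 (4.42% against 0.781%).

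**Figure D1:**
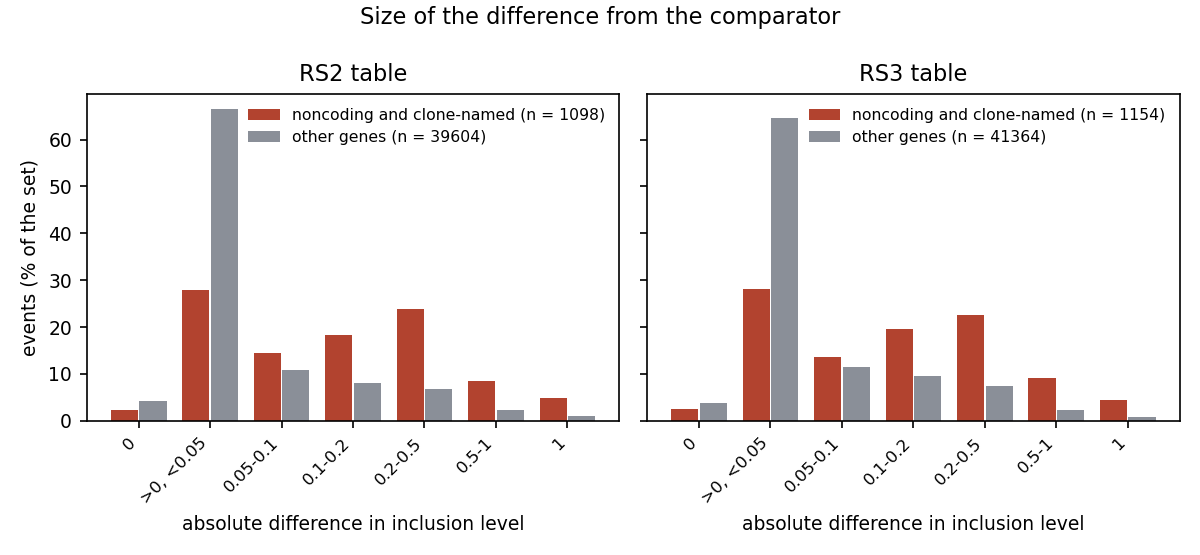
Share of events (y axis, percent of each set) by absolute difference in inclusion level from the comparator (x axis), for noncoding and clone-named loci (red) and other genes (grey) in each table. Grey bars are taller for differences under 0.05 and red bars are taller in each bin from 0.05 up, for example 23.9% against 6.82% from 0.2 to 0.5 in RS2.

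Higher and lower differences were near equal in number in RS2, and lower ones were more numerous in RS3. The median signed difference was 0.000 in RS2 and -0.004 in RS3, beside 0.000 and -0.001 for other genes. Of the differences of at least 0.1, 313 were higher and 296 lower than the comparator in RS2, beside 3647 and 3578 at other genes. In RS3, 289 were higher and 355 lower, beside 3476 and 4876 at other genes. Among member events with a p-value under 0.05, 15 were higher and 29 lower in RS2, and 24 were higher and 61 lower in RS3. At other genes those counts were 808 and 987 in RS2 and 1002 and 2150 in RS3. Complete switches divided into 28 higher and 26 lower in RS2 and 22 higher and 29 lower in RS3. RS2 and RS3 share the comparator library, so their values stand side by side and are not independent.

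The classes of symbol differed among themselves. A difference of at least 0.1 was commonest at -AS1 loci, with 65.9% of 223 events in RS2 and 69.0% of 239 in RS3. Clone-named loci stood at 55.0% and 54.0%, and LINC genes at 51.0% and 58.1%. The SNHG genes stood at 14.3% of 42 events and 15.6% of 45 events, under the share of all events of the tables (19.2% and 21.2%).

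The GENCODE 29 gene type divided the members in another way. Noncoding RNAs among the members stood at 59.6% in RS2 and 60.4% in RS3, and noncoding RNAs outside the symbol rule at 43.8% and 47.3%. Members classed as protein coding stood at 35.5% and 34.2%, and coding genes outside the rule at 17.9% and 19.8%. Pseudogenes inside and outside the rule lay close together by this measure, at 53.1% and 50.8% in RS2 and at 57.0% and 53.7% in RS3. Members missing from GENCODE 29 stood at 44.0% and 37.3%.

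**Figure D2:**
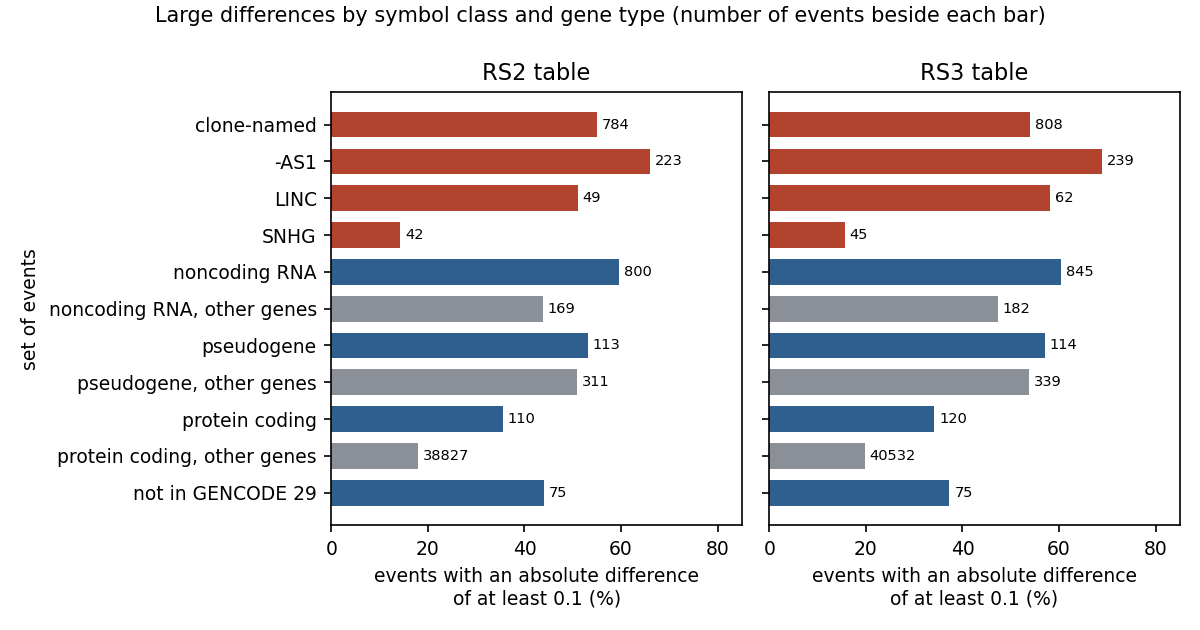
Share of events with an absolute difference of at least 0.1 from the comparator (x axis, percent) by symbol class (red), by GENCODE 29 type of the members (blue) and by the same type among other genes (grey), with the number of events beside each bar. The SNHG bar is the shortest in both tables (14.3% and 15.6%) and the -AS1 bar the longest (65.9% and 69.0%).

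Events of the same exon also lay far apart at these loci. In RS2, 136 member exons had more than 1 event, and the median range of their differences was 0.191, against 0.046 for 5218 exons of other genes. In RS3 it was 0.191 for 134 member exons and 0.043 for 5590 others. At 28 member exons in RS2 (20.6% against 4.64%) and 30 in RS3 (22.4% against 5.01%), 1 event was at least 0.1 higher than the comparator and another at least 0.1 lower. A single event of such an exon therefore does not describe the exon as a whole.

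The exons were of ordinary size, and a length that keeps the reading frame was less common among them. Median length was 118 bases in the RS2 table and 121 in the RS3 table, against 119 for other genes in each. A length that is a multiple of 3 was found for 35.8% of member events against 41.2% of others in the RS2 table, and for 35.1% against 41.4% in the RS3 table. Sequences could be matched for 726 of the 1135 member exons (64.0%) and for 89.9% of other exons. Among those, median GC content was 51.6% for members and 53.2% for others, and 56.2% and 55.6% ended in AG, the usual last bases of an exon. SNHG exons ended in AG in 9 of 30 cases (30.0%), and of the 3 SNHG sequences printed above, that of SNHG5 does so.

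Few of the differences came with a small p-value. The deposited p-values compare reads of 2 libraries and not conditions. A p-value under 0.05 was listed for 44 member events in RS2 (4.01%; background 4.52%) and for 85 in RS3 (7.37%; background 7.61%), shares near the background. Among differences of at least 0.1, that share was 5.75% against 12% for other genes in RS2 and 9.94% against 19.5% in RS3. The smallest p-value among the complete switches was 0.0164 in RS2 and 0.00945 in RS3, and their median was 0.213 and 0.212. A p-value of 1 was listed for 5.37% of member events against 26.9% of others in RS2 and for 6.41% against 26.1% in RS3. The read counts are unknown, so no interval can be given for a single difference, and the part of thin coverage in the large differences was not tested.

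**Figure D3:**
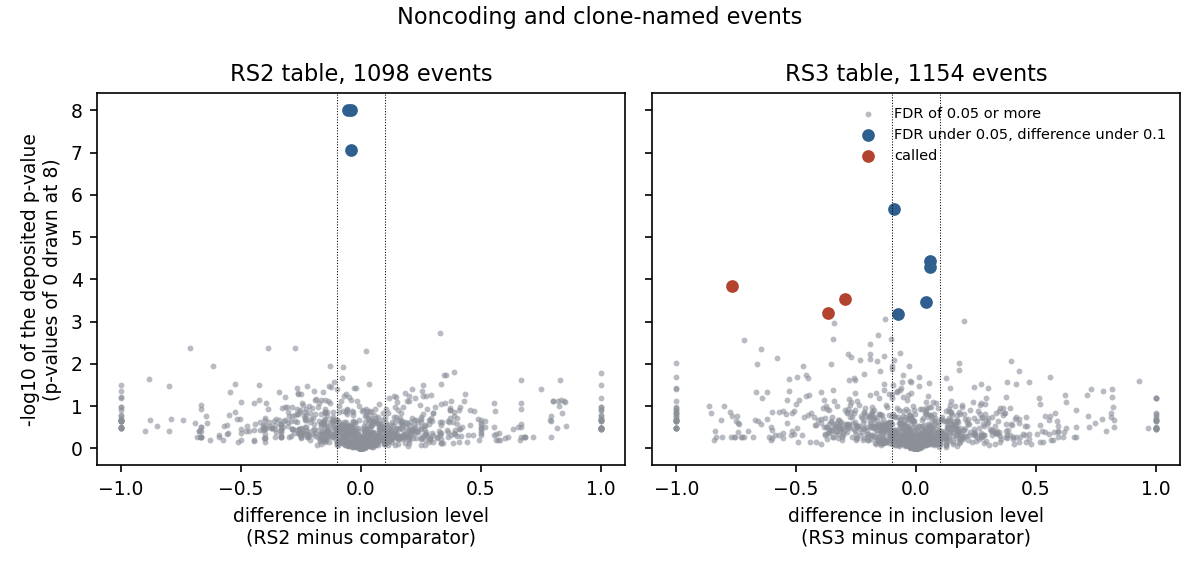
Each point is 1 member event, placed by its difference in inclusion level from the comparator (x axis) and the -log10 of the deposited p-value (y axis), with dotted lines at differences of -0.1 and 0.1. The 3 called events of RS3 (red) lie on the left, the events with an FDR under 0.05 but a difference under 0.1 (blue) lie between the dotted lines, and differences of -1 and 1 sit low in both panels.

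A call required a deposited FDR under 0.05 together with an absolute difference of at least 0.1. In RS2, 0 of 1098 member events were called (background 0.0712%), with 3 at an FDR under 0.05 and no minimum difference (background 0.165%) and 44 at an unadjusted p under 0.05. In RS3, 3 of 1154 were called (0.260%; background 0.967%), and 8 had an FDR under 0.05 (0.693%; background 1.64%). The 3 calls were lower than the comparator, the direction of the calls at 0.736% of all RS3 events. They lay at AC069513.3, TPT1-AS1 and RP11-164J13.1.

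AC069513.3 (ENSG00000242086), now MUC20-OT1, is an intergenic RNA that overlaps the mucin gene MUC20 on the same strand. Its exon of 100 bases at chr3:195416210-195416309 (hg19, plus strand) was less included in RS3, with a difference of -0.766 (p = 0.000144, FDR = 0.0132) in the authors' deposited table. The exon had 2 further events in RS3, at -0.357 and 0.250, with p-values of 0.351 and 0.664 in the authors' deposited table. Its 3 events in RS2 stood at -0.524 (p = 0.0299, FDR = 0.994), -0.257 (p = 0.447) and 0.250 (p = 0.560) in the authors' deposited table, and none was called. So the called difference belongs to 1 RS3 event of the exon and not to each of its listed events.

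TPT1-AS1 (ENSG00000170919) is transcribed against TPT1, which codes for the translationally controlled tumour protein. Its exon of 99 bases at chr13:45934276-45934374 (plus strand) was listed once in each table. The difference was -0.297 in RS3 (p = 0.000288, FDR = 0.0220) and -0.150 in RS2 (p = 0.136, FDR = 1.00), both from the authors' deposited tables. Both libraries were thus below the comparator, and RS3 alone met the call. The locus had 22 events in RS2, from -1 to 0.454, and 18 in RS3, from -0.815 to 0.182. Apart from the called exon, its FDR values were 0.756 or more, so wide differences at this locus mostly carried large p-values.

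RP11-164J13.1 (ENSG00000258461) is now AC012651.1 and is classed as protein coding. It overlaps CAPN3, which codes for a calpain protease of muscle, and GANC, which codes for an alpha-glucosidase, on the same strand. Its exon of 144 bases at chr15:42682151-42682294 (plus strand) was less included in RS3, with a difference of -0.365 (p = 0.000624, FDR = 0.0401) in the authors' deposited table. In RS2 the difference was -0.114 (p = 0.446, the authors' deposited table). This exon was thus below the comparator, which the tables share, in both, and the RS2 value was not called. Which of the overlapping genes its reads came from was not tested.

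**Figure D4:**
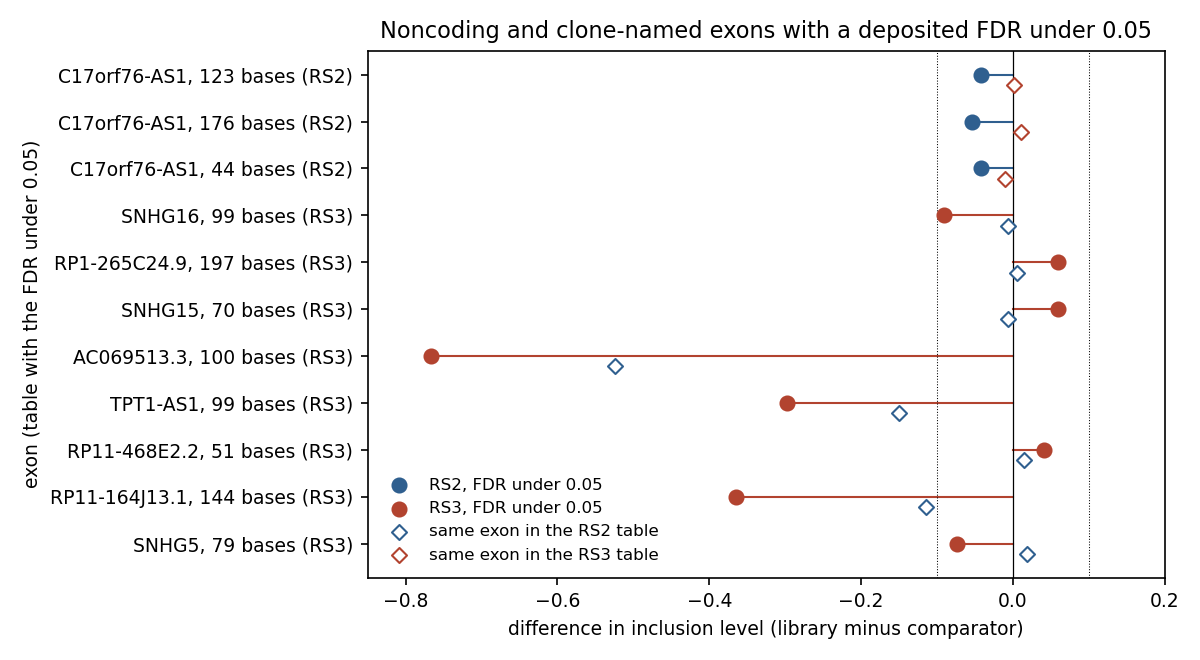
Difference in inclusion level from the comparator (x axis) of the 11 noncoding and clone-named exons with a deposited FDR under 0.05, labelled with the table concerned. Filled circles are that table's value (blue RS2, red RS3), diamonds the event of the same exon with the smallest p-value in the other table, and dotted lines -0.1 and 0.1. AC069513.3, TPT1-AS1 and RP11-164J13.1 pass the left line at -0.766, -0.297 and -0.365, while the other 8 circles lie between the lines.

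Small nucleolar RNA hosts gave 6 of the 8 events with an FDR under 0.05 and a difference under 0.1. An FDR under 0.05 was listed for 0 of 42 SNHG events in RS2 (background 0.165%). In RS3 it was listed for 3 of 45 SNHG events (6.67%; background 1.64%). At C17orf76-AS1 it was listed for 3 of 9 events in RS2 and 0 of 9 in RS3. In RS2 all 3 were at C17orf76-AS1, now LRRC75A-AS1, which lies against LRRC75A and hosts small nucleolar RNAs. The exons of 176, 123 and 44 bases end at the same base, position 16343017 of chromosome 17, so they share reads and are not 3 separate observations. For the 176-base exon printed above, the RS2 difference was -0.054 (FDR listed as 0, the authors' deposited table). For the 123-base exon it was -0.042 (FDR listed as 0) and for the 44-base exon also -0.042 (FDR = 0.000192), per the authors' deposited table. The 176-base and 44-base exons each had a second RS2 event, at 0.000 (p = 1.00) and 0.004 (p = 0.675) in the authors' deposited table. The lower value thus held for 1 event of each exon. In RS3 the 5 events of these exons lay from -0.010 to 0.011 in the authors' deposited table.

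SNHG16 is a host gene on chromosome 17. Its exon of 99 bases at chr17:74555027-74555125 had a difference of -0.091 in RS3 (p = 2.19e-06, FDR = 0.000391) and of -0.006 in RS2 (p = 0.756), per the authors' deposited tables. A further RS3 event of that exon stood at -0.009 in the authors' deposited table. RS3 was thus lower in 1 of its 2 events, and RS2 was near the comparator.

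SNHG15 went the other way. Its exon of 70 bases at chr7:45023956-45024025 had a difference of 0.059 in RS3 (FDR = 0.00565, the authors' deposited table). The other events of that exon in RS3 stood at -0.003 and 0.007, and those in RS2 at -0.006 and 0.005, per the authors' deposited tables. The higher inclusion was thus listed for 1 RS3 event of the exon.

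SNHG5 had the widest spread in RS3 among the hosts. Its exon of 79 bases at chr6:86387672-86387750 had a difference of -0.074 in RS3 (p = 0.000645, FDR = 0.0410) and of 0.019 in RS2 (p = 0.166), per the authors' deposited tables. An exon of 238 bases with the same 5′ boundary had a difference of -0.131 in RS3 (FDR = 0.0511, the authors' deposited table), which missed the call by its FDR. The other RS3 events of the 79-base exon stood at 0.006 and 0.002 in the authors' deposited table. An exon of 81 bases had RS3 events at -0.234 (p = 0.00827, FDR = 0.252) and 0.014 (p = 0.600), per the authors' deposited table. One of 69 bases had RS3 events at 0.294 (p = 0.0653), 0.105 (p = 0.540) and -0.022 (p = 0.493), per the authors' deposited table. Events of this gene thus lay on both sides of the comparator in RS3, also within 1 exon. In RS2 its 8 events lay from -0.064 to 0.165 with no p-value under 0.166.

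The remaining hosts had no event with an FDR under 0.05. SNHG14, the long imprinted host beside SNRPN that runs against UBE3A, had 18 events in each table, from -0.714 to 0.208 in RS2 and from -0.286 to 0.086 in RS3. Its lowest RS2 value, at an exon of 99 bases, had p = 0.00418 and FDR = 0.526 in the authors' deposited table. In RS3 that exon had events of -0.286 and 0.086, with p-values of 0.138 and 0.770 in the authors' deposited table. SNHG12 was higher than the comparator in its 4 events of each table, by 0.023 to 0.041 in RS2 and by 0.025 to 0.061 in RS3, with no p-value under 0.0812. SNHG6 ranged from -0.042 to 0.021 in RS2 and from -0.055 to -0.009 in RS3.

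The hosts with 1 listed exon showed small differences apart from SNHG1. SNHG11 had differences of -0.077 (p = 0.0217) in RS2 and -0.039 (p = 0.292) in RS3 in the authors' deposited tables. SNHG8 had differences of 0.004 and -0.001, and SNHG1, listed in RS2 alone, had -0.227 (p = 0.386), per the authors' deposited tables. Of the SNHG events, 0 of 42 were called in RS2 (background 0.0712%) and 0 of 45 in RS3 (background 0.967%). A p-value under 0.05 was listed for 4 in RS2 (9.52%; background 4.52%) and 8 in RS3 (17.8%; background 7.61%).

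**Figure D5:**
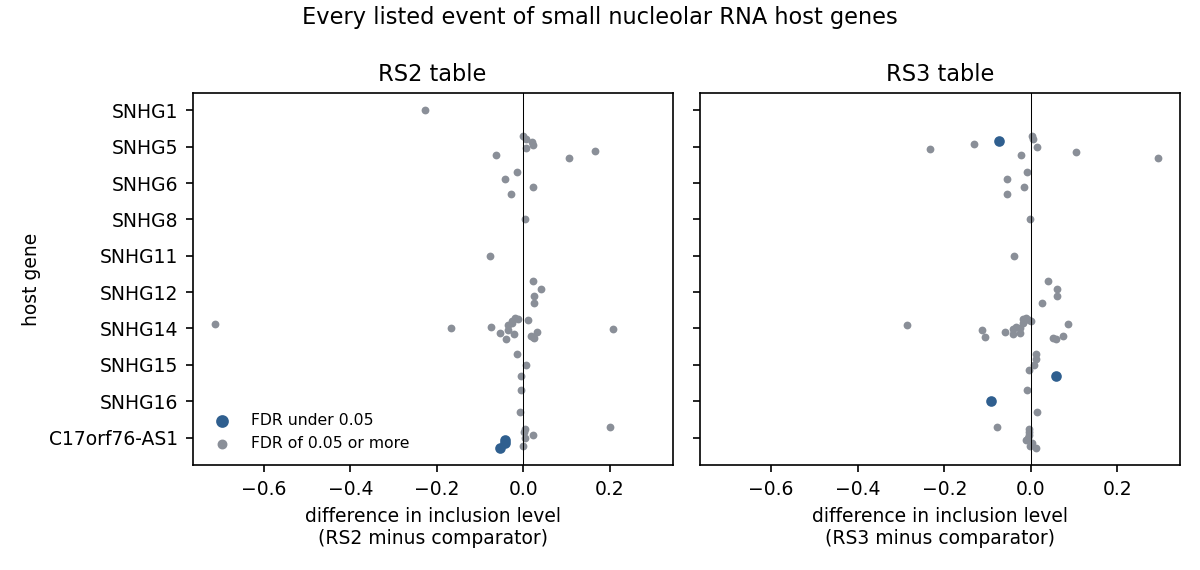
Difference in inclusion level from the comparator (x axis) for every listed event of the 9 SNHG genes and C17orf76-AS1 (y axis), with blue points at an FDR under 0.05. Most points lie close to 0, the blue points are within 0.1 of it, and the outlying point at -0.714 in RS2 belongs to SNHG14.

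The other exons with an FDR under 0.05 were both higher in RS3. RP1-265C24.9, now ZSCAN16-AS1, lies against the zinc-finger gene ZSCAN16. Its exon of 197 bases at chr6:28093401-28093597 had a difference of 0.059 in RS3 (FDR = 0.00430) and of 0.006 in RS2, per the authors' deposited tables. A clone-named locus now called AL136295.4 and classed as protein coding overlaps IPO4 and TM9SF1 on the same strand. Its exon of 51 bases at chr14:24651998-24652048 had a difference of 0.041 in RS3 (FDR = 0.0251) and of 0.014 in RS2, per the authors' deposited tables.

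Of 604 member exons listed once in each table, 1 had a p-value under 0.05 and a difference of at least 0.1 in both. It lay at the antisense locus CD27-AS1. The matching share at other genes was not counted. CD27-AS1 runs against CD27, a receptor of lymphocytes. Its exon of 640 bases at chr12:6559507-6560146 had a difference of -0.129 in RS2 (p = 0.0114, FDR = 0.777) and of -0.134 in RS3 (p = 0.00635, FDR = 0.215), per the authors' deposited tables. Exons of 111 and 88 bases inside it had differences of -0.101 and -0.112 in RS2 and of -0.102 and -0.101 in RS3 in the authors' deposited tables. The 640-base exon also holds another of 235 bases. That exon stood at 0.008 (p = 0.703) in RS2 and -0.012 (p = 0.848) in RS3, per the authors' deposited tables. The exons of 640, 111 and 88 bases share their 5′ boundary and reads, and no exon of the locus was called. PSMG3-AS1, which lies beside a proteasome assembly gene, had an exon of 108 bases at -0.387 in RS2 (p = 0.00431, FDR = 0.532) and -0.254 in RS3 (p = 0.125) in the authors' deposited tables.

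TTC28-AS1 and PCBP1-AS1 show how far events of 1 locus can part. TTC28-AS1 had 12 events in RS3 from -0.457 to 0.302, of which 4 had a p-value under 0.05 and none was called. Its exons of 853 and 235 bases, which share an end, stood at -0.192 and -0.191 in RS3 (p = 0.00581 and 0.00766, the authors' deposited table). PCBP1-AS1, next to the gene of a poly(C)-binding protein, had the most events, 32 in RS2 and 43 in RS3. Its RS3 differences spanned -1 to 1 with a median of 0.000. An exon of 197 bases had 8 events there, of which 3 were at 0.430, 0.271 and 0.240 with p-values of 0.0146, 0.0297 and 0.0360 and FDR values of 0.351 or more in the authors' deposited table. Its other events ranged from -0.443 to 0.812.

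The LINC genes had 0 calls, where 0.0712% of all RS2 events and 0.967% of all RS3 events were called. A p-value under 0.05 was listed for 0 of 49 LINC events in RS2 (background 4.52%) and for 6 of 62 in RS3 (9.68%; background 7.61%). LINC00152, now CYTOR, an RNA linked to the cytoskeleton, had an exon of 146 bases at -0.647 in RS3 (p = 0.00433, FDR = 0.167) in the authors' deposited table. Another RS3 event of that exon stood at -0.003 in the authors' deposited table. LINC00475 had an exon of 90 bases with 1 event at -0.578 (p = 0.00706) and another at 0.276 (p = 0.177) in RS3 in the authors' deposited table. In both genes, events of the same exon thus lay far apart. LINC00371, which GENCODE 29 lists as the protein-coding C13orf42, had an exon of 30 bases at -0.251 in RS2 (p = 0.0503) and -0.471 in RS3 (p = 0.0110), per the authors' deposited tables. LINC00174 had an exon of 116 bases that was higher in both, by 0.375 (p = 0.0740) and 0.396 (p = 0.263), per the authors' deposited tables.

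Among clone-named loci in RS2, the smallest p-value with a difference of at least 0.1 was at the pseudogene RP11-848P1.9. Its exon of 71 bases stood at 0.329 in RS2 (p = 0.00186, FDR = 0.332) and -0.010 in RS3, per the authors' deposited tables. AC006132.1, now EML2-AS1, had an exon of 194 bases at -0.276 in RS2 (p = 0.00420) and 0.107 in RS3 (p = 0.441) in the authors' deposited tables. RP13-672B3.2 had an exon of 176 bases at -0.618 in RS2 (p = 0.0114) and -0.044 in RS3 (p = 0.316) in the authors' deposited tables. These loci were picked by their RS2 p-values among differences of at least 0.1. Their RS3 values were smaller in size, in some cases of the other sign. That choice favours large RS2 differences, and its part in the gap was not tested. AC124789.1 was picked by its RS3 p-value instead, with an exon of 88 bases at 0.014 in RS2 and 0.2 in RS3 (RS3 p = 0.000986, FDR = 0.0577, the authors' deposited tables).

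Some loci, named here after their values were seen, had several events with p-values under 0.05. RP1-80B9.2, now GMDS-DT, had 3 in RS2, each higher than the comparator, by 0.347, 1 and 0.831 in the authors' deposited table. Their FDR values were 0.905, 0.862 and 0.964. Other RS2 events of these exons lay on both sides of the comparator, from -0.404 to 0.803. No RS3 event of the locus had a p-value under 0.280. AC005154.6, now GARS-DT, which starts beside the glycyl-tRNA synthetase gene, had 3 in RS3, with differences of -0.665, -0.719 and 0.180 in the authors' deposited table. Their FDR values were 0.284, 0.121 and 0.344. The exons at -0.665 and -0.719 also had RS3 events at 0.346 and 0.181. RP11-514O12.4, classed as protein coding, had 4 in RS3, each lower, from -0.020 to -0.190, with the smallest FDR at 0.0999 in the authors' deposited table. Its exon at -0.020, of 46 bases, was also listed for RNASET2. Its exon of 71 bases, at -0.105, had another RS3 event at 0.006. In RS2 the exons of 71 and 61 bases stood at 0.036 and 0.058, and that of 46 bases at -0.019, in the authors' deposited table. At least 1 event with a p-value under 0.05 was listed at 33 of the 492 loci in RS2 (6.71%, against 13.6% of other loci) and at 65 of the 513 in RS3 (12.7% against 20.7%). At least 2 such events were listed at 7 loci in RS2 (1.42% against 3.05%) and at 12 in RS3 (2.34% against 6.12%). Other loci had more events each, 3.95 on average against 2.23 in RS2 and 4.05 against 2.25 in RS3. An event that differed by 0.1 or more was listed at 348 loci in RS2 (70.7% against 41.3%) and at 351 in RS3 (68.4% against 44.4%).

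Some member exons were listed again, with the same coordinates, for another gene. There were 27 such exons in each table, at 22 loci in RS2 and 21 in RS3, and in 19 of the 27 the member was classed as protein coding. The difference was equal under both names in 1 pair of each table, and it was at least 0.1 apart in 11 pairs for RS2 and 9 for RS3. For the exon of 90 bases shared by RP1-170O19.20 and HOXA9, a homeobox gene, it was -0.002 in RS2 and 0.006 in RS3 under both names in the authors' deposited tables. For the exon of 81 bases shared by AC068533.7 and ASL, the argininosuccinate lyase gene, the RS2 difference was 0.792 (p = 0.534) under the first name and -0.009 (p = 1.00) under the second in the authors' deposited table. The exon of RP13-672B3.2 at -0.618 in RS2 stood at 0.007 under the name PXMP2, a peroxisomal membrane protein gene, in the authors' deposited table. Reads of such exons cannot be assigned to 1 of the genes with certainty, so these values are uncertain.

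Well-known noncoding RNAs without such symbols were taken from a list of 52, of which 16 were in RS2 with 75 events and 17 in RS3 with 84. In RS2 0 events were called (background 0.0712%), with 5 at a p-value under 0.05 (6.67%; background 4.52%). In RS3 1 was called (1.19%; background 0.967%), with 15 at a p-value under 0.05 (17.9%; background 7.61%). The call was at ZFAS1, another small nucleolar RNA host, which runs against ZNFX1. Its exon of 86 bases at chr20:47897022-47897107 had a difference of -0.167 in RS3 (FDR listed as 0) and of -0.015 in RS2, per the authors' deposited tables. Another RS3 event of that exon stood at 0.001 in the authors' deposited table. MIR22HG, the host of a microRNA, was at 0.142 in RS3 (FDR = 0.0524), just outside the call, in the authors' deposited table. MEG3, an imprinted RNA, had an exon of 127 bases at -0.252 in RS2 (p = 0.00140, FDR = 0.278, the authors' deposited table).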

How the data were processed

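RNA of 3 libraries was sequenced after mRNA selection, per the labels' protocols. The submitters' processing notes name hg19, STAR and FastQC without versions. No source used here gives the splicing program. The authors deposited, per the file headers, a difference in inclusion level per event, a score from -1 to 1, with a p-value and an FDR. Another 4 columns give a level per library that no label ties to a sample, and they were not used. A positive difference was read as higher inclusion in RS2 or RS3, from the order in which each comparison names its libraries, a reading checked once against those columns. Depth per sample is unknown.

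Members and lists were chosen with earlier results of these data known. Rows were selected by symbol with pandas 2.3.3 (Python 3.11.15), and calls took an FDR under 0.05 and an absolute difference of at least 0.1. Exons were matched between tables on gene, strand, start and end. Flanking exons are not listed, so even the 604 member exons with 1 row in each table may be different events there. Named loci were those called and all SNHG genes. Also named were the 3 loci per class and table with the smallest p-value at a difference of at least 0.1. Exons listed once in each table with p under 0.05 and such a difference in both were added. Some loci were named after their values were seen. The Benjamini-Hochberg, symbol and matching steps were tested on simulated data. Coordinates are hg19, counted from 1. Gene classes and sequences come from GENCODE 29 through Ensembl identifiers. Sequences of the other exons with an FDR under 0.05 are not reported here.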

Additional observations from a re-analysis of the deposited data

Results flagged for a closer look

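Named exons listed once in each table that differed by at least 0.1 in opposite directions in RS2 and RS3 were picked out. The AC006132.1 exon of 194 bases was at -0.276 in RS2 and 0.107 in RS3 in the authors' deposited tables. At TPT1-AS1 the exon of 189 bases was at 0.182 in RS2 and -0.383 in RS3, per the authors' deposited tables. The TPT1-AS1 exon of 145 bases, which shares its end with that exon, was at 0.236 and -0.334 in the authors' deposited tables. No test of these opposite directions was made, and both values rest on the same comparator library. Their p-values were between 0.318 and 0.525 at TPT1-AS1 and 0.00420 and 0.441 at AC006132.1, in the authors' deposited tables.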

How the results depend on the processing

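Of 38 values recomputed under other settings, 33 stayed close to the reported ones and 5 moved. A reversal was not looked for. Without a minimum difference the count of member events past the FDR was 3 in RS2 and 8 in RS3. At an FDR under 0.1 it was 7 in RS3, and a stricter rule of FDR under 0.01 with a minimum of 0.2 left 0. With 1 value per locus, 52.2% of RS2 loci differed by at least 0.1. The RS3 count stayed at 3 under a minimum difference of 0.2, a recomputed adjustment, 1 row per exon, and without exons also listed for another gene, an alternative chosen after seeing the data. It was 2 with single-row exons, which drops AC069513.3, and 2 without protein-coding members, which drops RP11-164J13.1. The RS2 count was 0 in each of those settings. Apart from the recomputed adjustment, they only select among the called events. With 0 called in RS2 they could give no other count, though they are among the 33. The RS2 median difference stayed from 0.000 to 0.001 and the RS3 median from -0.007 to -0.004, and the share of RS3 differences of at least 0.1 between 53.2% and 58.3%. No paired analysis was possible because each group has 1 library and no test of samples was run. No library could be left out for the same reason, and the unknown depth limits how far any single difference can be read.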
